A study of Arabidopsis thaliana with 2 samples.

Results

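The genes of plastid fatty acid synthesis and seed oil assembly were followed in early globular embryos of Arabidopsis thaliana, when the embryo is still a ball without cotyledons. The set was defined by a list of 44 gene identifiers, chosen with earlier results of these data known. No measured value is part of its rule, and 43 of the 44 had a row among the 20612 loci of the expression table. FAE1, the seed enzyme that lengthens fatty acids beyond the plastid's products, was searched for motifs but has no expression value here. Poly(A) RNA was sequenced from 1 library of dcl1-5 embryos and 1 library of wild-type Col-0 embryos, each a pool of 30 embryos dissected by hand. The mutant allele dcl1-5 affects DCL1, the Dicer-like endonuclease that processes microRNA precursors in plants. Days had 16 hours of light and 8 hours of dark for both genotypes. Since each genotype was sequenced once, the differences have no check by replicates, and no p-value tests the genotypes. In RNA from whole embryos, a difference in RNA per cell and a difference in the make-up of the cells cannot be told apart.

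Values are RPM, the reads of a gene scaled to the genome-matching reads of its library. The dcl1-5 library held 4513588 such reads and the wild-type library 5611643, so 1 read stood for 0.222 RPM in dcl1-5 and 0.178 RPM in wild type. Brackets hold exact 95% intervals, which cover counting error only because the RNA was amplified before sequencing. DCL1 itself had 3 reads (0.665 RPM) in dcl1-5 and 26 reads (4.63 RPM) in wild type, a ratio of 0.143 [0.0278 to 0.468]. The comparison covered the 10240 genes whose 2 values averaged 5 RPM or more. A gene under 5 RPM in wild type could pass only through its level in dcl1-5. A gene was called higher or lower when log2((dcl1-5 RPM + 1) / (wild-type RPM + 1)) reached 1 or -1, that is 2-fold. All-gene ratios were displaced upwards in dcl1-5, with a median log2 ratio of 0.63 (1.54-fold), and the displacement was larger for genes at low levels. Counts are therefore also given after this median was subtracted and after a lowess correction for expression level.

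Plant cells make fatty acids inside the plastid. Pyruvate kinase and the pyruvate dehydrogenase complex supply acetyl-CoA, acetyl-CoA carboxylase turns it into malonyl-CoA, and a synthase of separate enzymes extends the growing chain while acyl carrier proteins (ACPs) hold it. A soluble desaturase puts in the first double bond, thioesterases free the finished chain, and enzymes of the endoplasmic reticulum (ER) modify it further and join it to glycerol as triacylglycerol, the oil stored by the Arabidopsis seed. During seed filling many of the plastid genes are switched on by WRINKLED1 (WRI1), a transcription factor of the AP2 family that binds a motif called the AW-box.

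Of the 40 members that passed the filter, 19 (47.5%) were at least 2-fold higher in dcl1-5 and 0 were at least 2-fold lower. Over all tested genes 33.8% were higher and 4.58% were lower by the same rule. The median log2 ratio of the 40 members was 0.93, against 0.63 over all tested genes. After the all-gene median was subtracted, 10 members (25%) were higher, beside 14.6% of all genes. After lowess correction 13 members (32.5%) were higher, beside 11.1% of all genes, and LPAT2, an ER acyltransferase, was lower. At a 4-fold threshold 3 members were higher, BCCP2, AAD1 and ACP5, beside 7.82% of all genes. ACP5, with 3 reads in wild type, passed the filter only through dcl1-5. An exact binomial test on the reads called 36 members higher, beside 59.2% of all genes. It compares these 2 libraries for counting error and not the genotypes. Reads of all members together summed to 8107 RPM, or 0.811% of the library, in dcl1-5 and 4150 RPM, or 0.415%, in wild type. By sign alone 38 of the 40 had more RPM in dcl1-5, and 10 of these 38 had less than in wild type after TMM scaling, which brings the all-gene median close to 0. Those 10 were PDH-E1 BETA, E1-BETA-2, LPD1, BCCP1, KASIII, HAD2, ACP3, FATA2, FAD2 and PDAT1, and FAD3 changed sign after lowess correction.

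The count of higher members lay unevenly with respect to genome position. Of the 40 members, 14 overlapped a neighbouring locus on the opposite strand, by 13 to 333 bases, and 11 of these 14 (78.6%) were higher. ACP5, among the 11, passed the filter only through dcl1-5. Among the 26 that overlapped no locus 8 (30.8%) were higher, beside 33.8% of all tested genes without an overlap and 34.1% of those with one. Net of the median shift 4 of the 26 (15.4%) were higher, and after lowess correction 5 (19.2%). The median log2 ratio was 1.55 for the 14 and 0.82 for the 26. Reads were counted by strand, per the series' design text, and no member overlapped a locus on its own strand. Of the 9 partner loci that passed the filter, 6 were higher, 2 neither and 1 lower, beside 34.1% higher of all tested genes with an overlap. The lower one was AT5G15520, which shares 192 bases with BCCP2 and had 53.8 RPM in dcl1-5 and 131 RPM in wild type. ACP1 and its partner AT3G05010 were both higher. AT3G51530, the partner of DGAT2, was among the 6 higher, with 14.8 RPM in dcl1-5 and 4.46 RPM in wild type. It passed the filter only through dcl1-5. The part of the overlaps in the result was not tested.

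**Figure D1:**
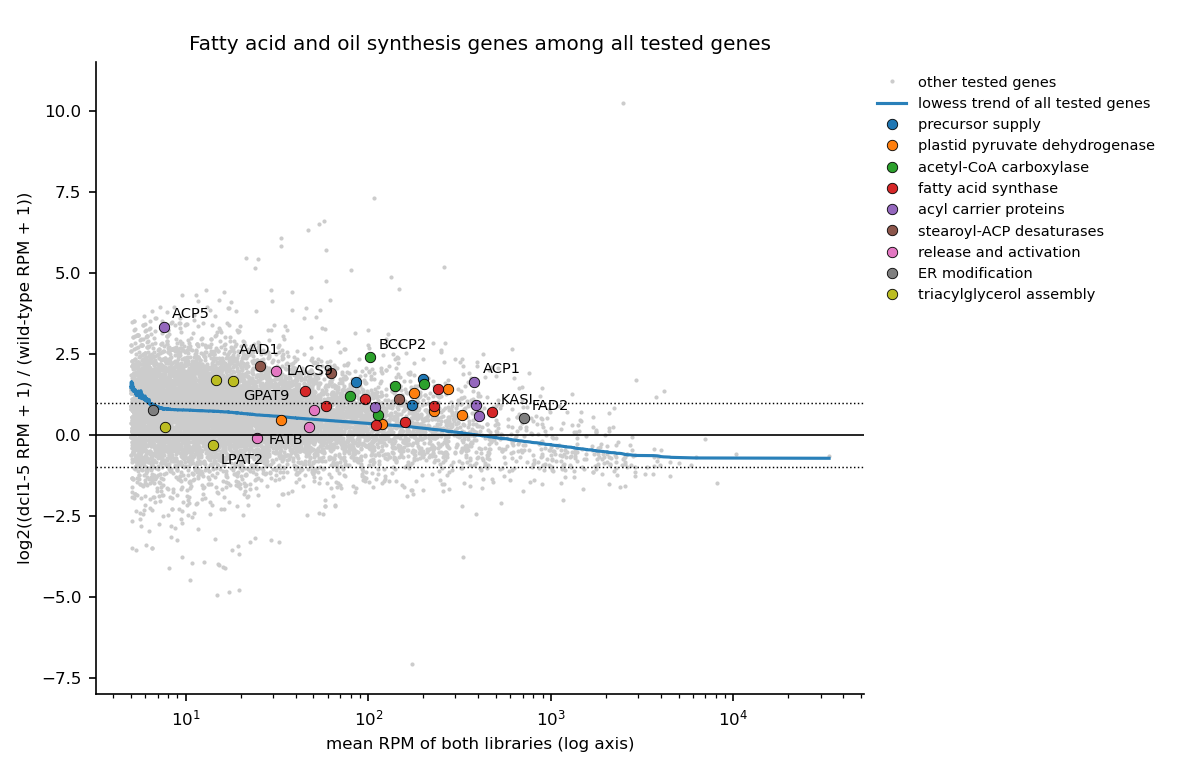
Log2 ratio of dcl1-5 over wild type for every gene at a mean of at least 5 RPM, against that mean on a log axis. Coloured circles are the 40 members by role, grey dots the other tested genes, the blue line the lowess trend, and dotted lines mark 2-fold; no member lies below the lower dotted line, and FATB and LPAT2 are the members below 0.

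WRI1 had 118.5 RPM (535 reads) in dcl1-5 and 40.6 RPM (228 reads) in wild type, a ratio of 2.92 [2.49 to 3.42], which stayed above 2-fold after lowess correction but not net of the median shift. The DNA before each member's start codon was searched for the AW-box, CNTNGNNNNNNNCG with N for any base, on both strands. In the 300 bases before the start codon, 28 of the 44 members (63.6%) held at least 1 match, against 3711 of 27443 protein-coding nuclear genes (13.5%). The motif was defined in the literature on genes of this pathway, BCCP2 and pyruvate kinase among them, so the share is a description of the set and not independent of its choice. A window from 250 bases before to 50 bases after the annotated gene start held a match in 9 members (20.5%), beside 11.9% of all genes. The start-codon window was chosen after the first window had been examined. It held 39 matches, of which 35 lay in annotated 5′ UTR exons and 4 upstream of the annotated gene. On the gene's own strand lay 31 of them, and 32 began within 150 bases of the start codon.

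The sites below are both sites of BCCP2 and 1 site each of the pyruvate kinase subunits, the paired E1 beta subunits and 4 ACPs. PKP-BETA1, PDH-E1 BETA and E1-BETA-2 each hold a further site that is not printed. Each is written 5′ to 3′ in 30 bases of the RefSeq TAIR10.1 sequence, with the fixed letters of the motif in capitals.
BCCP2, far site: ttgggtttCtTcGtaagcatCGaaatcaga
BCCP2, near site: tcctacttCcTcGgtttcatCGtccactgt
PKP-ALPHA: ctctcacaCtTcGatatctcCGccttcatt
PKP-BETA1: ttctccgcCtTcGtaagttcCGccgaaaag
PDH-E1 BETA: atttaattCtTcGatttctcCGcttgtcac
E1-BETA-2: cgcttttcCtTcGatttctcCGctcttctc
ACP1: ttcacgctCtTtGtacactcCGccctctct
ACP2: tctcatctCtTcGtcttctcCGcctccttc
ACP3: tcacatctCtTtGtcttctcCGcctcctcc
ACP5: ttcacgctCcTtGaacaatcCGccatctct

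The 2 BCCP2 sites lie on the plus strand at chr5:5038819-5038832 and chr5:5038926-5038939, beginning 136 and 29 bases before the start codon, both in the 5′ UTR. The pyruvate kinase sites lie at chr3:8139273-8139286 for PKP-ALPHA and chr5:21463560-21463573 for PKP-BETA1, both on the plus strand and in the 5′ UTR. PDH-E1 BETA (chr1:10586585-10586598, minus strand) and E1-BETA-2 (chr2:14570959-14570972, minus strand) share all 14 letters of the motif in the printed pair, 121 and 128 bases before their start codons. The other 3 pairings of sites between these genes share 9 or 10 letters. The ACP2 site (chr1:20389514-20389527, plus strand) and the ACP3 site (chr1:20402963-20402976, minus strand) differ by the single substitution C4T, counted from 1 at the motif's 5′ end with the ACP2 base first. The ACP1 site lies at chr3:1392936-1392949 on the minus strand in the 5′ UTR. The ACP5 site, at chr5:9571147-9571160 on the plus strand, lies upstream of the annotated gene, 38 bases before the start codon.

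Matches were unevenly spread over the pathway. They occurred in all 3 genes of precursor supply, all 7 of the plastid pyruvate dehydrogenase, 6 of 8 fatty acid synthase genes and 4 of 5 ACPs. Of the members that act in the plastid or at its envelope 26 of 35 held a match, against 2 of the 9 members outside it, ACC1 and the ER enzymes, namely DGAT2 and PDAT1. Related genes outside the member list held matches too. The share was 50% for cofactors and regulators of plastid enzymes and 38.9% for plastid glycolysis and carbon import. It was 35.3% for other ER lipid assembly and elongation and 33.3% for regulators of oil synthesis. Fatty acid export and activation and counterparts outside the plastid had 11.1% each, and photosystem and light-harvesting genes 13%. Members were called higher with and without a match. Among those with an AW-box 13 of 27 tested were higher, with a median log2 ratio of 0.93, and among members without one 6 of 13 were higher, with a median of 0.90. Over the other tested genes, 15.6% of those called higher and 14.9% of the rest held a match. The RY element CATGCA and the G-box CACGTG, motifs bound by other seed regulators, occurred before the start codon of 3 members (6.82%; DGAT1, FAD2 and FAE1) and 7 members (15.9%), beside 8.17% and 6.28% of all genes.

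**Figure D2:**
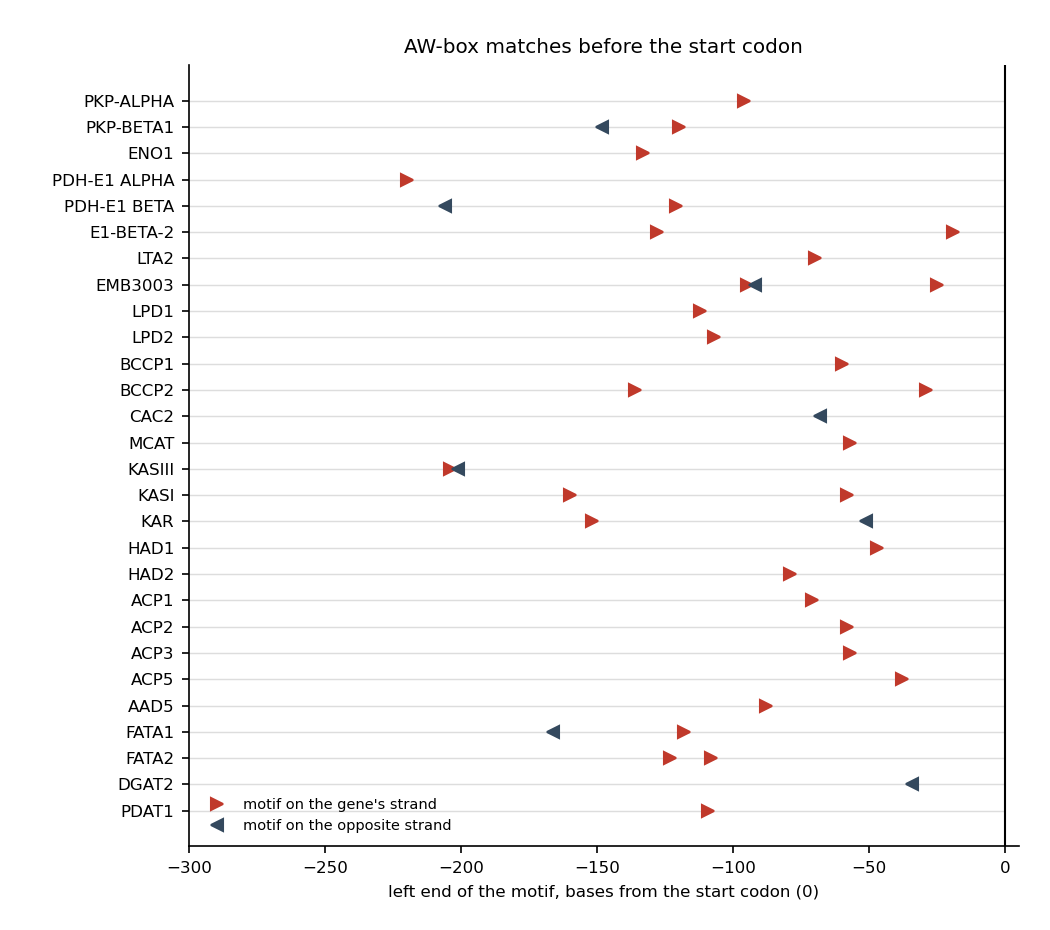
Position of each AW-box match in the 300 bases before the start codon, in bases from the start codon at 0, for the 28 members that hold one. Right-pointing triangles are matches on the gene's strand (31) and left-pointing triangles those on the opposite strand; most lie within 150 bases of the start codon.

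In precursor supply 2 of 3 genes were higher, and both stayed so net of the median shift. PKP-ALPHA (AT3G22960), the alpha subunit of plastid pyruvate kinase, had 308 RPM in dcl1-5 and 91.8 RPM in wild type, a ratio of 3.36 [3.03 to 3.72]. Its partner PKP-BETA1 (AT5G52920) had 228 RPM in dcl1-5 and 119 RPM in wild type, a ratio of 1.91 [1.73 to 2.11] that stayed just under 2-fold. The 2 subunits thus changed places, with PKP-ALPHA at 57.4% [55.4 to 59.4] of their summed reads in dcl1-5 and 43.5% [40.6 to 46.4] in wild type. ENO1 (AT1G74030), the plastid enolase that makes the substrate of pyruvate kinase, had 130 RPM in dcl1-5 and 41.2 RPM in wild type, a ratio of 3.16 [2.71 to 3.70]. The neighbouring steps of plastid glycolysis and carbon import were less uniform, with 5 of 14 tested genes higher, near the 33.8% of all tested genes. Of the 14, 0 were lower, the median log2 ratio was 0.58, and 3 were higher net of the median shift. The largest ratios there were those of PFK5, a plastid phosphofructokinase (25.3 RPM in dcl1-5 and 4.63 RPM in wild type), PGI1, the plastid phosphoglucose isomerase (20.8 RPM in dcl1-5 and 5.35 RPM in wild type), and PGK1, a phosphoglycerate kinase (188 RPM in dcl1-5 and 49.4 RPM in wild type). PFK5 passed the filter only through dcl1-5.

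In the plastid pyruvate dehydrogenase complex, which converts pyruvate to acetyl-CoA, 2 of 6 tested subunit genes were higher, near the 33.8% of all tested genes. Both were also higher after lowess correction and neither net of the median shift. PDH-E1 ALPHA (AT1G01090) had 396 RPM in dcl1-5 and 148 RPM in wild type, a ratio of 2.68 [2.47 to 2.91]. PDH-E1 BETA (AT1G30120), which encodes the other subunit of the same E1 enzyme, had 395 RPM in dcl1-5 and 255 RPM in wild type, a ratio of 1.55 [1.44 to 1.66] that equalled the all-gene median within its interval. Its paralogue E1-BETA-2 (AT2G34590) had 133 RPM in dcl1-5 and 105 RPM in wild type. Partners in one enzyme therefore differed in ratio, and both beta genes lay below wild type after TMM scaling. The E2 subunit carries the acetyl group, and its gene EMB3003 (AT1G34430) had 253 RPM in dcl1-5 and 102 RPM in wild type, a ratio of 2.48 [2.24 to 2.75]. LTA2 (AT3G25860), the other E2 gene, had 288 RPM in dcl1-5 and 172 RPM in wild type, a ratio of 1.68 [1.54 to 1.82]. EMB3003 accounted for 46.7% [44.7 to 48.7] of E2 reads in dcl1-5 and 37.2% [34.8 to 39.6] in wild type. Of the E3 genes, which reoxidise the complex, LPD1 (AT3G16950) had 38.6 RPM in dcl1-5 and 27.8 RPM in wild type. LPD2 (AT4G16155) did not pass the filter, with 37 reads in dcl1-5 and 9 reads in wild type.

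Acetyl-CoA carboxylase makes the committed step, and 4 of its 5 listed genes were higher, beside 33.8% of all tested genes. After lowess correction 3 were, beside 11.1% of all genes. Net of the median shift or with TMM scaling only BCCP2 was, beside 14.6% of all genes in each case. BCCP2 (AT5G15530), a biotin carboxyl carrier protein known from developing seeds, had 172 RPM (776 reads) in dcl1-5 and 31.9 RPM (179 reads) in wild type, a ratio of 5.39 [4.58 to 6.38]. BCCP1 (AT5G16390), the carrier expressed throughout the plant, had 136 RPM in dcl1-5 and 88.7 RPM in wild type, a ratio of 1.53 [1.36 to 1.73]. The leading isoform thus differed between the libraries, since BCCP2 made up 55.8% [53.2 to 58.5] of BCCP reads in dcl1-5 and 26.4% [23.2 to 29.9] in wild type. This comparison within each library does not depend on the scaling between them, and the odds ratio was 3.51 [2.86 to 4.32]. CAC2 (AT5G35360), the biotin carboxylase, had 208 RPM in dcl1-5 and 72.7 RPM in wild type, a ratio of 2.86 [2.54 to 3.22]. CAC3 (AT2G38040), the alpha subunit of the carboxyltransferase, had 305 RPM in dcl1-5 and 101 RPM in wild type, a ratio of 3.03 [2.74 to 3.34]. BCCP2, CAC2 and CAC3 are among the genes that overlap a locus on the other strand, and BCCP1 is not. ACC1 (AT1G36160), the separate single-chain enzyme of the cytosol, had 110 RPM in dcl1-5 and 47.4 RPM in wild type, a ratio of 2.33 [2.0 to 2.71].

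In a list of cofactor enzymes and regulators that serve these complexes, 4 of 9 tested genes were higher and 0 lower, with a median log2 ratio of 0.74. Over all tested genes 33.8% were higher. Net of the median shift 1 was higher, LIP1P, and after lowess correction 0. LIP1P, which makes lipoic acid in the plastid, had 12.4 RPM in dcl1-5 and 1.96 RPM in wild type, and passed the filter only through dcl1-5. HCS1, which attaches biotin to carrier proteins, had 16.8 RPM in dcl1-5 and 6.24 RPM in wild type. BADC2, a biotin-less relative of BCCP that restrains the carboxylase, had 47.6 RPM in dcl1-5 and 19.4 RPM in wild type.

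Fatty acid synthase genes were abundant in both libraries. Of these 3 of 8 were higher, near the 33.8% of all tested genes, 0 net of the median shift and 1, KAR, after lowess correction. MCAT (AT2G30200), which loads malonyl groups onto ACP, had 64.7 RPM in dcl1-5 and 24.8 RPM in wild type, a ratio of 2.61 [2.13 to 3.22]. KAR (AT1G24360), the ketoacyl reductase, had 351 RPM in dcl1-5 and 130 RPM in wild type, a ratio of 2.69 [2.47 to 2.94]. HAD1 (AT5G10160), a hydroxyacyl dehydratase, had 132 RPM in dcl1-5 and 59.9 RPM in wild type, a ratio of 2.20 [1.92 to 2.52], while its paralogue HAD2 (AT2G22230) had 181 RPM in dcl1-5 and 137 RPM in wild type. HAD2 remained the more abundant dehydratase, at 57.8% [55.2 to 60.4] of the pair in dcl1-5 and 69.5% [66.7 to 72.2] in wild type. MOD1 (AT2G05990), the enoyl reductase that closes each cycle, had 297 RPM in dcl1-5 and 159 RPM in wild type, just under 2-fold at a ratio of 1.87 [1.72 to 2.04].

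The condensing enzymes, which add each carbon pair, were all under 2-fold. KASI (AT5G46290) had 591 RPM in dcl1-5 and 363 RPM in wild type, a ratio of 1.63 [1.54 to 1.73]. KASII (AT1G74960), which makes the last extension, had 76.4 RPM in dcl1-5 and 41.0 RPM in wild type, a ratio of 1.86 [1.57 to 2.21]. KASIII (AT1G62640), which starts the chain, had 121 RPM in dcl1-5 and 98.5 RPM in wild type, a ratio of 1.23 [1.09 to 1.39]. The starting enzyme therefore made up a smaller share of condensing enzyme reads in dcl1-5, at 15.4% [14.2 to 16.6], than in wild type, at 19.6% [18.2 to 21.1].

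**Figure D3:**
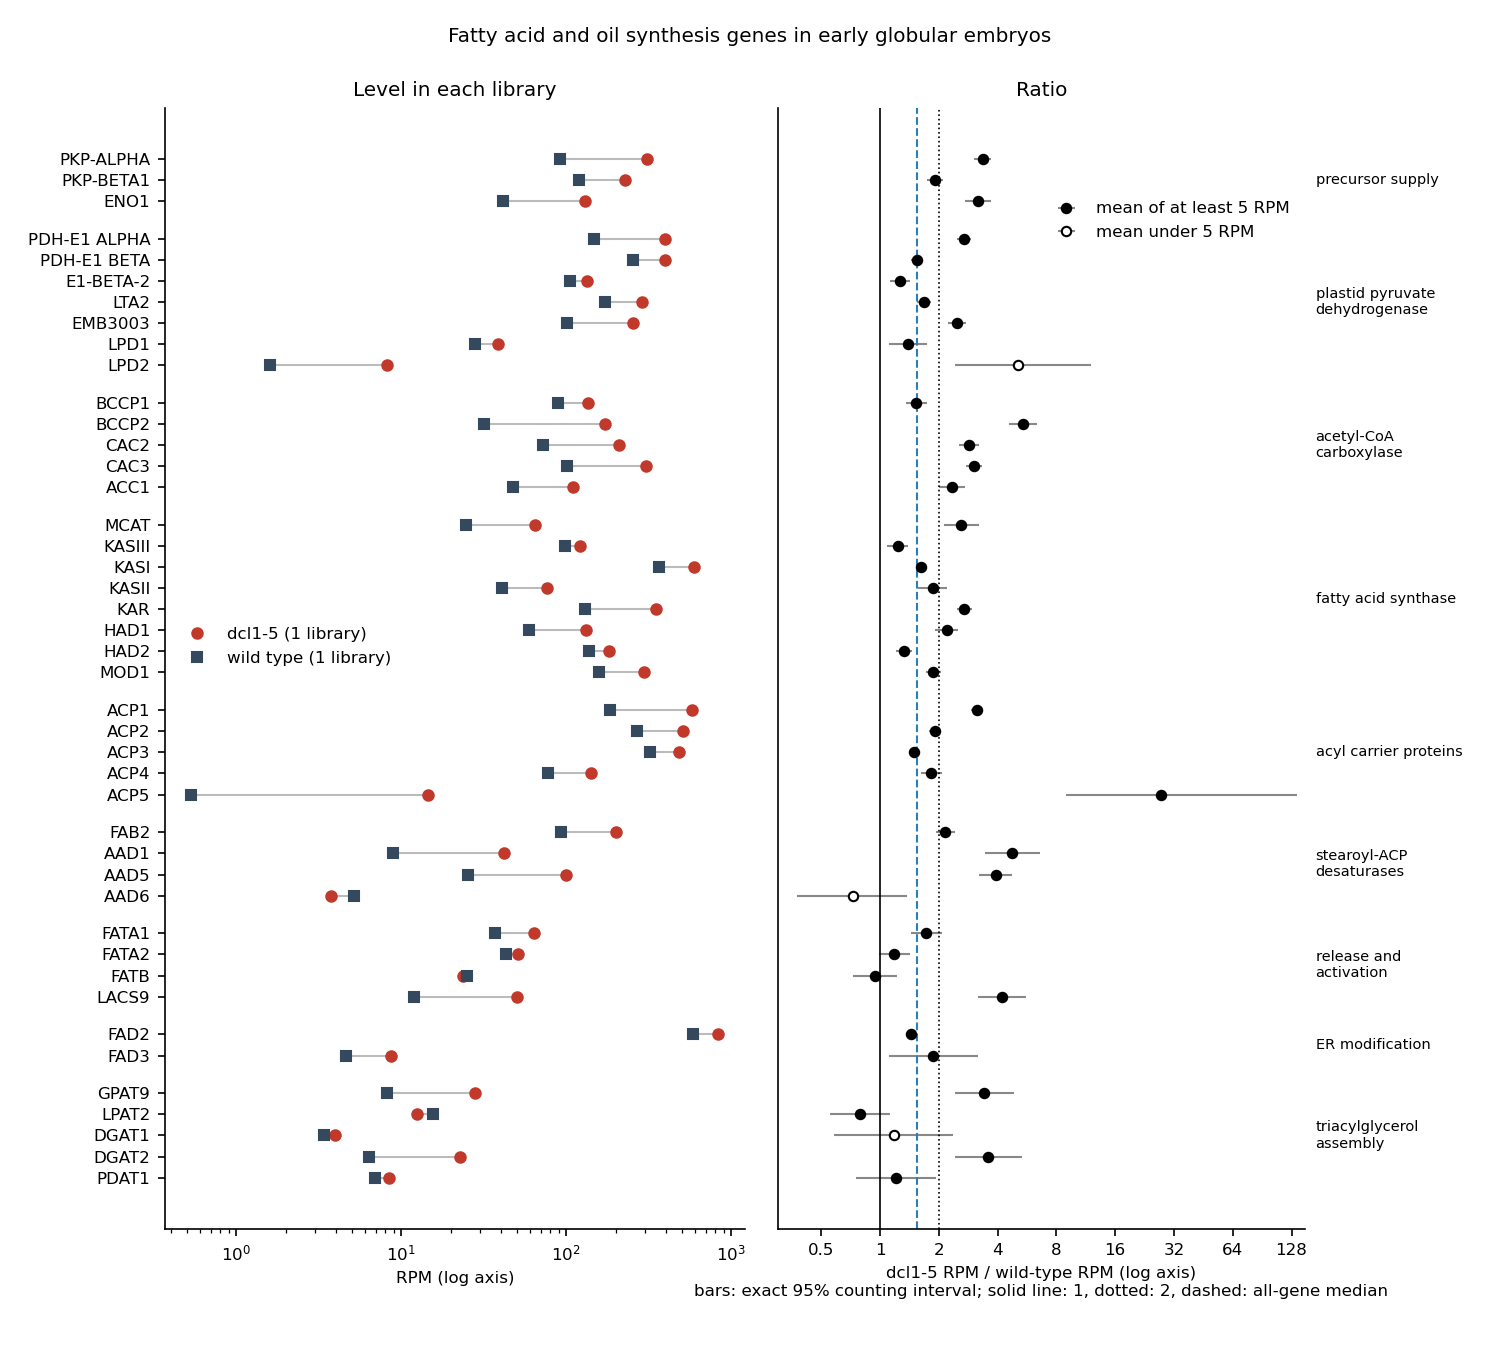
Left, RPM of each member on a log axis in dcl1-5 (circles) and wild type (squares), 1 library each, grouped by role. Right, the ratio of dcl1-5 over wild type with its exact 95% counting interval on a log axis; the solid line is a ratio of 1, the dotted line 2, the dashed line the all-gene median of 1.54, and open symbols are LPD2, AAD6 and DGAT1, which had a mean under 5 RPM.

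The ACP genes gave the most reads per length of any role in both libraries. Per kb of coding sequence ACP1, ACP2 and ACP3 held ranks 1 to 3 in dcl1-5, at 1392, 1247 and 1172 RPM per kb. In wild type the order was ACP3 at 788, ACP2 at 655, FAD2 at 506 and ACP1 at 443 RPM per kb. ACP1 (AT3G05020) had 576 RPM in dcl1-5 and 183 RPM in wild type, a ratio of 3.14 [2.92 to 3.38]. ACP2 (AT1G54580) had 512 RPM in dcl1-5 and 269 RPM in wild type, a ratio of 1.90 [1.78 to 2.03]. ACP3 (AT1G54630) had 482 RPM in dcl1-5 and 324 RPM in wild type, a ratio of 1.49 [1.40 to 1.58]. ACP1 thus made up 33.4% [32.3 to 34.4] of ACP reads in dcl1-5 and 21.5% [20.3 to 22.7] in wild type, and ACP3 27.9% [26.9 to 28.9] in dcl1-5 and 37.9% [36.5 to 39.3] in wild type. ACP2 and ACP3 share sequence, with 7.96% and 10.8% of their 25-base words found elsewhere in the genome, and reads that fit more than 1 place were not counted. ACP4 (AT4G25050), the main form of leaves, had 141 RPM in dcl1-5 and 77.3 RPM in wild type. ACP5 (AT5G27200) was the member with the largest ratio, 27.4 [8.96 to 136], from 66 reads (14.6 RPM) in dcl1-5 and 3 reads (0.535 RPM) in wild type, and it passed the filter only through its level in dcl1-5.

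The stearoyl-ACP desaturases form oleic acid, the first unsaturated product, and all 3 tested genes were higher, beside 33.8% of all tested genes. FAB2 (AT2G43710), the main desaturase of leaves, had 201 RPM in dcl1-5 and 93.4 RPM in wild type, a ratio of 2.16 [1.93 to 2.41]. AAD1 (AT5G16240) had 42.1 RPM in dcl1-5 and 8.91 RPM in wild type, a ratio of 4.72 [3.44 to 6.59]. AAD5 (AT3G02630) had 99.7 RPM in dcl1-5 and 25.5 RPM in wild type, a ratio of 3.91 [3.23 to 4.76]. AAD1 and AAD5 were higher net of the median shift and after TMM scaling as well, and FAB2 was not. FAB2 stayed the leading form, with 58.0% [55.6 to 60.5] of desaturase reads in dcl1-5 and 70.2% [66.8 to 73.5] in wild type. AAD6 (AT1G43800) did not pass the filter and had 17 reads in dcl1-5 and 29 reads in wild type. Its share of the desaturase reads was 1.09% [0.634 to 1.73] in dcl1-5 and 3.89% [2.62 to 5.54] in wild type.

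**Figure D4:**
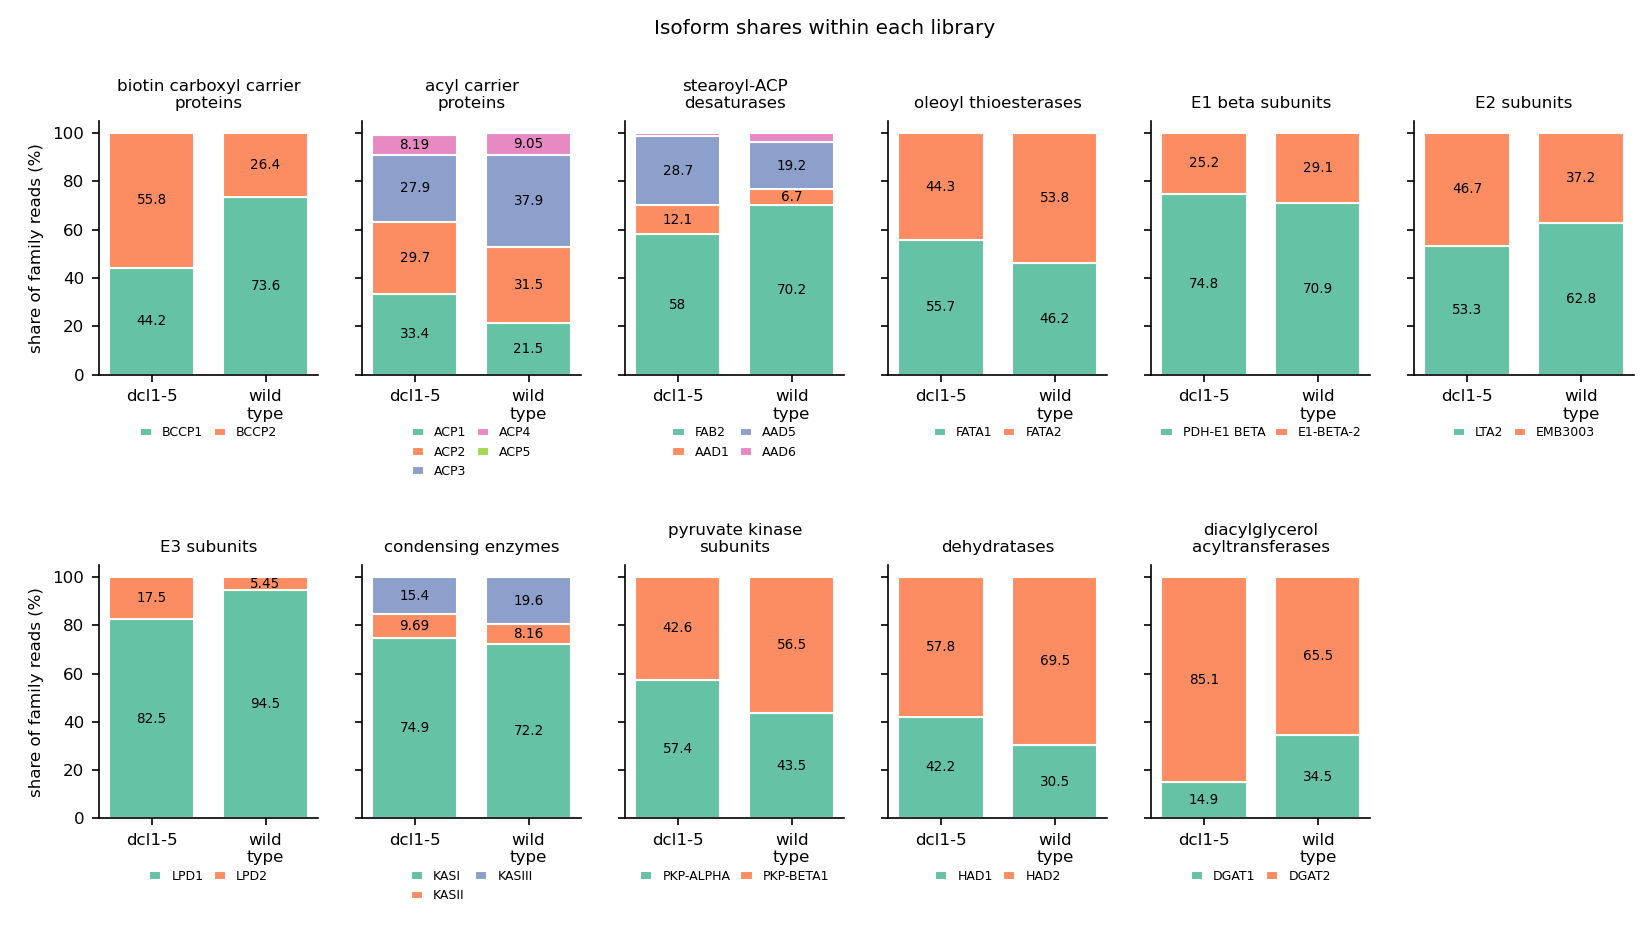
Share of each isoform in the summed reads of its family within each library, in percent, with dcl1-5 left and wild type right in each panel. BCCP2 passes BCCP1 in dcl1-5 (55.8%, against 26.4% in wild type), and ACP1, AAD5, PKP-ALPHA, HAD1 and EMB3003 also take larger shares in dcl1-5.

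Of the 3 thioesterase genes, which release the chain from ACP, 0 were called. FATA1 (AT3G25110) and FATA2 (AT4G13050) encode enzymes that prefer oleoyl-ACP. FATA1 had 64.0 RPM in dcl1-5 and 37.1 RPM in wild type, a ratio of 1.73 [1.44 to 2.07], and FATA2 had 51.0 RPM in dcl1-5 and 43.1 RPM in wild type, a ratio of 1.18 [0.982 to 1.42]. FATB (AT1G08510), which releases palmitate, had 23.7 RPM in dcl1-5 and 25.1 RPM in wild type, a ratio of 0.943 [0.727 to 1.22]. The intervals of FATA2 and FATB lie below the all-gene median of 1.54 and that of FATA1 includes it. LACS9 (AT1G77590), the acyl-CoA synthetase of the plastid envelope, was higher, with 50.3 RPM in dcl1-5 and 11.9 RPM in wild type, a ratio of 4.21 [3.19 to 5.62]. Other genes of fatty acid export and activation had 5 of 8 tested members higher, 0 lower and a median log2 ratio of 1.39. Over all tested genes 33.8% were higher and the median was 0.63. LACS1, among the 5, had 9.97 RPM in dcl1-5 and 3.39 RPM in wild type and passed the filter only through dcl1-5. LACS4 had 114 RPM in dcl1-5 and 30.1 RPM in wild type, LACS2 had 55.6 RPM in dcl1-5 and 18.2 RPM in wild type, and LACS8 had 28.6 RPM in dcl1-5 and 9.62 RPM in wild type. All 3 encode long-chain acyl-CoA synthetases, and the list had 1 gene higher net of the median shift and 2 after lowess correction.

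Of the 6 tested ER members 2 were higher, GPAT9 and DGAT2, also net of the median shift, and 0 after lowess correction. The 2 of 6 is near the 33.8% of all tested genes. FAD2 (AT3G12120), the oleate desaturase, gave more RPM than any other member in both libraries, at 836 RPM in dcl1-5 and 583 RPM in wild type, a ratio of 1.43 [1.37 to 1.5]. FAD3 (AT2G29980), which makes linolenic acid, had 8.64 RPM in dcl1-5 and 4.63 RPM in wild type. GPAT9 (AT5G60620), which adds the first acyl chain to glycerol-3-phosphate, had 27.9 RPM in dcl1-5 and 8.20 RPM in wild type, a ratio of 3.41 [2.41 to 4.88]. LPAT2 (AT3G57650), which adds the next chain, had 12.4 RPM (56 reads) in dcl1-5 and 15.7 RPM (88 reads) in wild type, a ratio of 0.791 [0.556 to 1.12]. Consecutive enzymes of glycerolipid assembly thus had ratios on opposite sides of 1, although the interval of LPAT2 includes 1.

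Among the enzymes that add the last chain, DGAT2 (AT3G51520) was higher, with 22.8 RPM (103 reads) in dcl1-5 and 6.42 RPM (36 reads) in wild type, a ratio of 3.56 [2.41 to 5.35]. DGAT1 (AT2G19450), the main diacylglycerol acyltransferase of seed oil, did not pass the filter, with 18 reads in dcl1-5 and 19 reads in wild type. PDAT1 (AT5G13640), which takes the chain from a phospholipid, had 8.42 RPM in dcl1-5 and 6.95 RPM in wild type, a ratio of 1.21 [0.754 to 1.94]. DGAT2 made up 85.1% [77.5 to 90.9] of the reads of the DGAT pair in dcl1-5 and 65.5% [51.4 to 77.8] in wild type. Both shares rest on few reads, 121 in dcl1-5 and 55 in wild type. DGAT3, a soluble diacylglycerol acyltransferase outside the member list, had 110 RPM in dcl1-5 and 37.8 RPM in wild type.

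Genes around the pathway were counted in lists chosen for their roles. Other ER lipid assembly and elongation genes were higher in 4 of 12 cases, beside the background of 33.8%, and in 1 case net of the median shift. The largest ratio there was that of ROD1, which moves choline headgroups, at 103 RPM in dcl1-5 and 20.1 RPM in wild type. Plastid glycerolipid synthesis had 4 of 5 tested genes higher, 2 net of the median shift and 0 after lowess correction, and its galactolipid synthase DGD1 had 30.1 RPM in dcl1-5 and 8.55 RPM in wild type. The 2 were DGD1 and FAD7, and FAD7 passed the filter only through dcl1-5. So did SQD1, also among the 4, with 16.0 RPM in dcl1-5 and 4.99 RPM in wild type. Counterparts of the member enzymes outside the plastid, in the cytosol and mitochondrion, were higher in 7 of 16 cases with a median log2 ratio of 0.78. Net of the median shift 1 was higher and 2 lower, and after lowess correction 1 was higher and 1 lower. The higher gene was IAR4 both times, with 49.2 RPM in dcl1-5 and 8.02 RPM in wild type, a ratio of 6.13 [4.44 to 8.65]. The pyruvate kinase gene AT3G52990 had 216 RPM in dcl1-5 and 90.2 RPM in wild type. For mtLPD2 the values were 41.0 RPM in dcl1-5 and 16.9 RPM in wild type. Their summed reads were 3506 RPM in dcl1-5 and 2998 RPM in wild type, 1.17-fold, beside 1.95-fold for the fatty acid and oil synthesis genes. LOS2, an enolase, alone gave 1863 RPM of this in dcl1-5 and 1660 RPM in wild type. MTACP2, a mitochondrial acyl carrier protein, gave 375 RPM in dcl1-5 and 535 RPM in wild type. The sum ratio is therefore not a measure of the whole list. Among regulators of oil synthesis 5 of 8 were higher, with a median log2 ratio of 1.34. Net of the median shift or with TMM scaling 2 were, L1L and GL2, and after lowess correction 3, with WRI1. L1L, a LEC1-type transcription factor subunit, had 181 RPM in dcl1-5 and 18.4 RPM in wild type, and GL2, an epidermal regulator known to restrain seed oil, had 17.5 RPM in dcl1-5 and 3.74 RPM in wild type. GL2 passed the filter only through dcl1-5. WRI3, a relative of WRI1, had 19.1 RPM in dcl1-5 and 5.52 RPM in wild type. Genes of oil breakdown were higher in 4 of 8 cases, 2 net of the median shift, PCK1, which turns its products towards sugar, among them at 245 RPM in dcl1-5 and 46.0 RPM in wild type. The other gene higher net of the median shift, LACS6, passed the filter only through dcl1-5.

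The 4 oil body coat genes that passed the filter did so only through dcl1-5, since each had 1 or 2 reads in wild type, so no count or median is given for them. They summed to 482 RPM in dcl1-5 and 0.891 RPM in wild type. OLEO3, an oleosin that covers oil droplets, had 972 reads in dcl1-5 and 2 reads in wild type, a ratio of 604 [167 to 5000]. Among the tested members the largest ratio was the 27.4 of ACP5, a carrier protein with 3 reads in wild type. The next was the 5.39 of BCCP2. All 23 photosystem and light-harvesting genes were higher, beside 33.8% of all tested genes, and 21 of them net of the median shift. Their median log2 ratio was 2.08, and they summed to 9642 RPM in dcl1-5 and 2392 RPM in wild type. Their part in the values of the fatty acid genes, which also act in plastids, was not tested.

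Markers of the tissues around the embryo were read as well, beside 33.8% of all tested genes higher. Seed coat markers were higher in 3 of 7 tested cases, 2 net of the median shift, with a median log2 ratio of 0.90 that was -0.08 after lowess correction. The 2 were BAN and TT1, and TT1, with 38 reads in dcl1-5 and 9 in wild type, passed the filter only through dcl1-5. Among the 5 markers under the filter, TT8 had 31 reads in dcl1-5 and 5 reads in wild type. In the same order TT10 had 26 and 3 reads, TT16 30 and 5, TTG2 15 and 2, and AHA10 1 and 5. The 12 summed to 2185 RPM in dcl1-5 and 1309 RPM in wild type with none at 0 in either library, and TT4, the first flavonoid enzyme, gave 1804 RPM of this in dcl1-5 and 1113 RPM in wild type. BAN, a seed coat tannin enzyme, had 125 RPM in dcl1-5 and 32.6 RPM in wild type. Endosperm markers were higher in 1 of 3 tested cases, 0 after lowess correction. That case, FIS2, had 53 reads in dcl1-5 and 3 reads in wild type and passed the filter only through dcl1-5. The other tested markers, FWA and SUC5, were called neither. FWA had 27.0 RPM in dcl1-5 and 13.5 RPM in wild type, a ratio of 1.996 [1.49 to 2.69]. SUC5 had 17.9 RPM in dcl1-5 and 10.7 RPM in wild type, a ratio of 1.68 [1.19 to 2.38]. Of the 5 markers under the filter, AGL62 had 1 read in dcl1-5 and 9 reads in wild type. MEA had 6 reads in dcl1-5 and 15 reads in wild type, and ZOU 1 read in dcl1-5 and 3 reads in wild type. MINI3 went the other way, with 4 reads in dcl1-5 and 3 reads in wild type. The remaining marker under the filter enters only the sum that follows, so no direction is read from the markers under the filter. The 8 markers with a row summed to 62.3 RPM in dcl1-5 and 30.5 RPM in wild type. Embryo markers had 1 of 9 higher, WOX8, and 2 lower, DRN and PLT2, and the 10 summed to 1225 RPM in dcl1-5 and 1172 RPM in wild type, with none at 0 in either library. The part of these tissues in the values of the fatty acid genes was not tested.

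**Figure D5:**
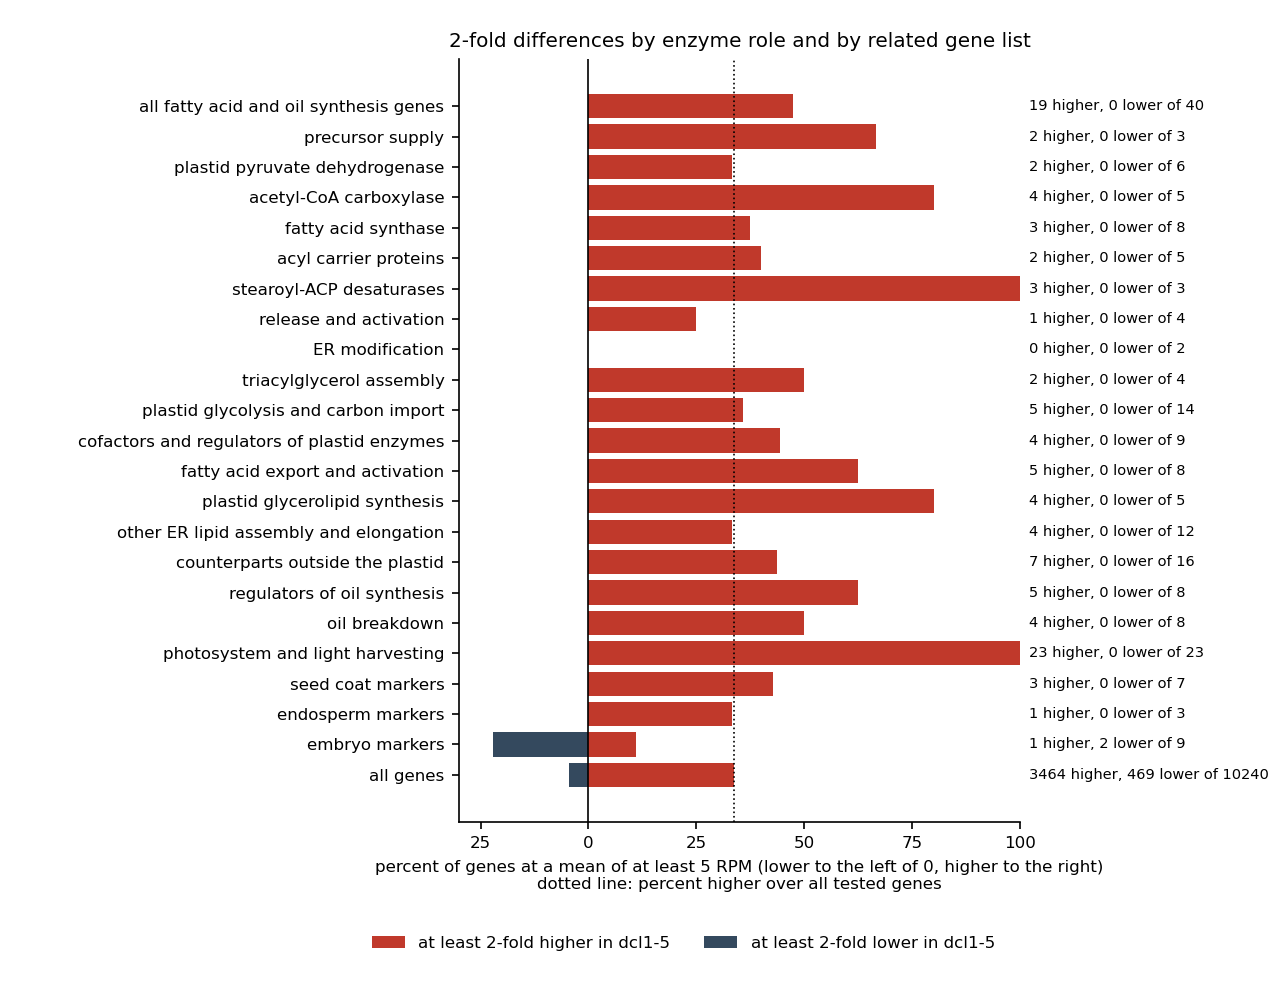
Percent of tested genes at least 2-fold higher in dcl1-5 (right of 0) or at least 2-fold lower (left of 0), by enzyme role and by related gene list, with counts at the right; the oil body coat list is not drawn. The dotted line marks the 33.8% of all tested genes that were higher; acetyl-CoA carboxylase (4 of 5) and the stearoyl-ACP desaturases (3 of 3) lie above it, and the ER modification genes (0 of 2) below it.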

How the data were processed

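Per the series' design text, the authors removed adaptors, aligned reads to TAIR9 with Bowtie (at most 2 mismatches in the 25 nt seed), retained uniquely mapping reads and counted reads on the antisense strand of genes, because the RNA, amplified in 2 rounds, is antisense. The sources used here give no Bowtie version. Per the file headers, the authors deposited RPM values. All were whole reads within 0.01 reads, so reads were recovered; 88.0% lay in listed genes in dcl1-5 and 90.2% in wild type. A ratio column by the authors was not used.

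Ratios were computed with a pseudocount of 1 RPM, printed folds without it. Poisson, Clopper-Pearson and binomial intervals are exact at 95%. Names, coding lengths, overlaps and sequences came from RefSeq TAIR10.1, matched by identifier (20509 loci), and coordinates are of that build. Alternatives were other pseudocounts, filters, thresholds and scalings (TMM from edgeR 4.0.16 in R 4.3.3, with count tests on recovered reads). Python 3.11.15, pandas 2.3.3, scipy 1.17.1 and statsmodels 0.14.6 were used, and the steps were checked on simulated data.

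Members and lists were chosen with earlier results of these data known. The rule for naming genes was DCL1, all members, WRI1 and, per list, up to 3 genes of largest absolute log2 ratio among those averaging 5 RPM or more. Some genes that met this rule are not described in the results, LPAT5, AIM1, DFR, OLEO1, OLEO4, PSAD-1, PSAE-1 and LHCA3 among them. The overlap partners AT5G15520, AT3G05010 and AT3G51530, LACS1, LOS2, MTACP2 and the markers TT4, TT8, TT10, TT16, TTG2, AHA10, AGL62, MEA, ZOU and MINI3 were named after their values were seen.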

Additional observations from a re-analysis of the deposited data

How the results depend on the processing

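Of the members, 19 were called higher under the settings reported, and 12 were with median-of-ratios scaling, 8 with TMM scaling, 10 net of the median shift, 3 at a 4-fold threshold, 36 by an exact binomial test on the reads at an adjusted p of 0.05 (counting error only) and 8 when the 14 members that overlap another locus were left out. The count lower, 0 as reported, was 1 after lowess correction. The members' median log2 ratio, 0.93 as reported, was 0.45 with median-of-ratios scaling, 0.26 with TMM scaling, 0.76 after lowess correction and 0.30 net of the shift. There were 3464 of all genes called higher and 469 of all genes called lower as reported. The counts were 5706 higher and 1154 lower without a filter, 1243 and 220 at a mean of at least 20 RPM, 1947 and 1077 with median-of-ratios scaling, 1498 and 1452 with TMM scaling, 1135 and 1332 after lowess correction, 801 and 83 at 4-fold, 6062 and 1448 by the binomial test, and 1499 and 1471 net of the shift. The share of members with an AW-box, 20.5% around the annotated gene start, was 63.6% in the window before the start codon. The net counts and the start-codon window were chosen after seeing the data. Pseudocounts of 0.1 and 5 RPM left 19 members higher. Of the shares of isoforms, 49 stayed within their counting interval and 7 moved when recomputed per kb of coding sequence. No paired analysis was possible because each genotype had 1 library, and no library could be left out. Depth limits the members with few reads, LPD2, ACP5, AAD6, FAD3, DGAT1 and PDAT1 among them.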
